A study of Mus musculus with 4 samples.

Results

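The 10 heat shock protein genes followed here between diets in the mouse were Hspa1a, Hspa1b, Hspa8, Hsph1, Dnajb1, Hsp90aa1, Hsp90ab1, Hspb1, Hspd1 and Bag3. They were taken by name from a list, after the Ensembl identifiers of the count tables had been matched to symbols of build GRCm38, and they are 10 of 55421 identifiers. The RNA is labelled as that of islet macrophages, and the mice were wild-type C57BL/6 fed either a high-fat diet (HFD, 2 libraries) or normal chow (NCD, 2 libraries). The sources used here name no genetic change, age or feeding time. They do not say either whether different animals gave the 2 libraries of each diet. The p-values therefore set the difference between the diets against the spread of these libraries only, which may be technical. The libraries held 61855337 and 56740720 counts in HFD and 64490097 and 62171973 counts in NCD.

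Heat shock proteins are chaperones that hold, refold or hand on unfolded proteins. In the cytosol, HSP70 proteins bind short unfolded stretches with the help of J-domain proteins, which deliver clients, and of nucleotide exchange factors, which release them. HSP90 proteins finish the folding of kinases and steroid receptors, and small heat shock proteins keep unfolded proteins from clumping. Heat, oxidants and other protein damage free the transcription factor HSF1, which binds inverted repeats of the letters GAA in promoters and raises a subset of these genes. The inducible members here are Hspa1a, Hspa1b, Hsph1, Dnajb1, Hsp90aa1, Hspb1 and Bag3. Hspa8 and Hsp90ab1 are the constitutive forms, which most cells make without stress. Hspd1 encodes HSP60, which folds proteins inside mitochondria, so the name cytosolic does not hold for it and it was kept apart from both classes.

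The promoters of 4 members are shown because these genes span the range of change between the diets, and because of what the windows share. The sequences are RefSeq's, on build GRCm38.p6, from 250 bases before to 50 bases after a gene start, and are written 5′ to 3′ on the gene's strand. Capitals mark the letters GAANNTTC or TTCNNGAA, in which N is any base and which read the same on both strands. The Hspa1a window lies at chr17:34972107-34972406 (minus strand), that of Hspa1b at chr17:34959189-34959488 (minus strand), that of Hspb1 at chr5:135887669-135887968 (plus strand) and that of Hspd1 at chr1:55087883-55088182 (minus strand).
Hspa1a: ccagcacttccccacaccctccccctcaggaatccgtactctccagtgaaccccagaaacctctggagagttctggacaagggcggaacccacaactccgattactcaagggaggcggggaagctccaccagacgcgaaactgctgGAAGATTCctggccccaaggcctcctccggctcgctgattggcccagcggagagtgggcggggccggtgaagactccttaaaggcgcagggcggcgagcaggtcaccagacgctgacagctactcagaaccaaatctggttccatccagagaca
Hspa1b: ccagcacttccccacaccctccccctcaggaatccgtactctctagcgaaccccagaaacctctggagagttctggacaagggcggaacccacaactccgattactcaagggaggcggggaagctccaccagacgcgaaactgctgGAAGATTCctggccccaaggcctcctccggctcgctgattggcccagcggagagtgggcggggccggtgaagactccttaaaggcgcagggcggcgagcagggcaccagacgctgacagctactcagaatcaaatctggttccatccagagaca
Hspb1: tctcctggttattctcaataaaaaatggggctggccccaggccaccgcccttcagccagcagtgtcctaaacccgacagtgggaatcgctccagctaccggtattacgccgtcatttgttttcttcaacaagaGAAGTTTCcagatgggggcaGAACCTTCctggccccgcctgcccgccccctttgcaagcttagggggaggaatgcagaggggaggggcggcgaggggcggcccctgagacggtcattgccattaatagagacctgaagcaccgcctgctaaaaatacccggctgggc
Hspd1: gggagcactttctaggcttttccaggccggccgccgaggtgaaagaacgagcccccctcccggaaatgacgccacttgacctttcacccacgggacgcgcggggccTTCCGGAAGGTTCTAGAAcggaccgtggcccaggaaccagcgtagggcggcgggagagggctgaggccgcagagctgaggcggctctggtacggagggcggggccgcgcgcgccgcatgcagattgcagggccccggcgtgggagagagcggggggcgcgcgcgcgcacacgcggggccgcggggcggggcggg

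The Hspa1a and Hspa1b windows were identical at 296 of 300 bases. Counted from the 5′ end of the window, and with the Hspa1a base first, they differed by C44T, T47C, T249G and C276T. The 8-letter motif began 104 bases before the start in both. In the Hspb1 window it began 117 and 97 bases before the start. The Hspd1 window starts from an alternative annotated start and holds an 18-base run of overlapping motifs at chr1:55088059-55088076. The same bases, read on the other strand, lie in the window of Hspe1, which encodes the lid of the HSP60 chamber and faces Hspd1 head to head. This 18-base run lies inside the annotated bounds of Hspd1 (chr1:55077835-55088243, minus strand), whose 5′ end falls in a second window. That second window (chr1:55088194-55088493) held no motif.

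Of the 10 members, 7 had a window in the RefSeq table. Hspa8, Hsp90ab1 and Hsp90aa1 had none, so neither constitutive member was searched for motifs. Of the 7 with a window, 6 held GAANNTTC or TTCNNGAA in a window, as did 16.97% of the 27025 genes in the table. These 7 genes have 10 windows, of which 7 held a motif, against 15.1% of all 32851 windows. The Hspa1a and Hspa1b windows are near copies and the 2 Hsph1 windows overlap, so they do not count as separate cases. A run of 3 alternating units, GAANNTTCNNGAA or TTCNNGAANNTTC, which contains the shorter motifs, stood in 0.603% of all windows, in 0.662% of genes, and in windows of Hsph1 and Hspd1. In Hsph1 it reads TTCTGGAAAGTTC at chr5:149636288-149636300 on the minus strand. Bag3 held GAANNTTC beginning 43 bases after its start, and the windows of Dnajb1 held neither motif. The Hsph1 run began 16 and 37 bases after the starts of its 2 windows, and the Hspd1 run 144 bases before its alternative start. Hsph1 and Hspd1 moved in opposite directions between the diets, as given next, and the part of these runs was not tested.

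Levels are given as CPM, which are counts scaled to the size of the library. A gene was called higher or lower in HFD where edgeR's quasi-likelihood test gave a Benjamini-Hochberg adjusted p under 0.05 over 21563 genes tested. All 10 members were tested, and 7 were higher in HFD, 2 were lower and 1 was not called. Of all genes tested, 32.4% were called, 17.9% as higher and 14.5% as lower, against 70% of the members called higher. The members were chosen with earlier results of these data known, so their larger share was partly set by that choice and is no test. Hspa1a and Hspa1b, which are near copies, count as 2 of the 7. Among genes averaging at least 5 CPM, 3137 of 12731 were called higher. The median log2 change was 0.51 over the members and 0.00 over all genes tested. The HFD and NCD libraries did not overlap in any member, but the same held for 67.7% of all genes tested.

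**Figure D1:**
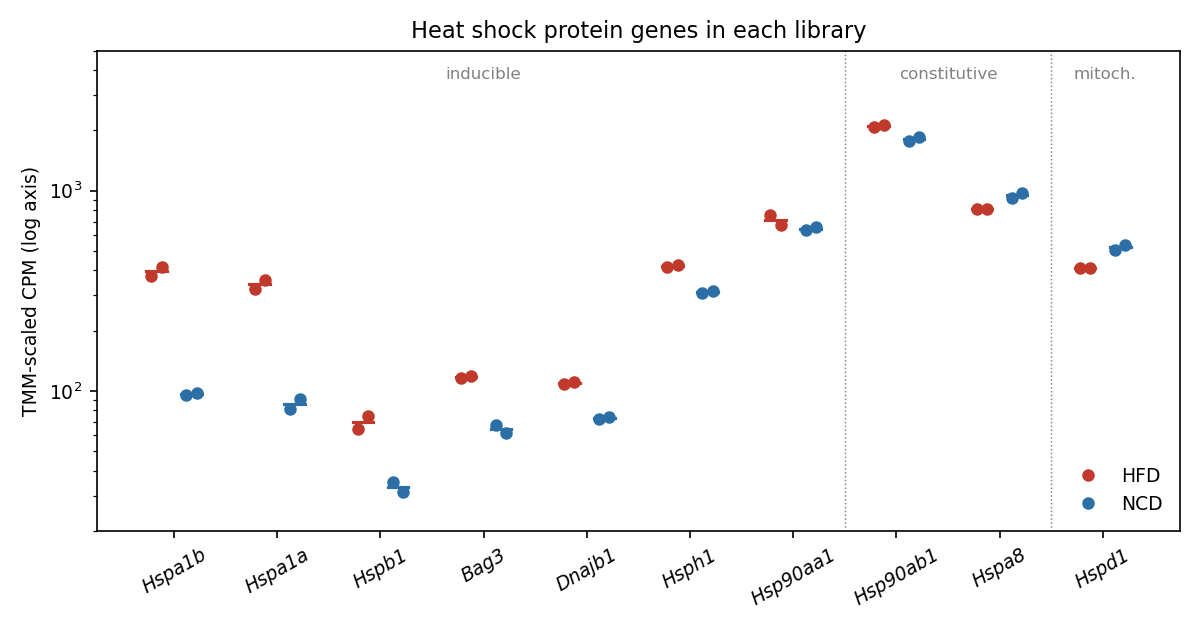
TMM-scaled CPM (log axis) of each heat shock protein gene, with HFD libraries in red left of NCD libraries in blue and 1 point per library. Hspa1b stands at 376 and 416 CPM in HFD and at 94.9 and 97.2 CPM in NCD, while Hspa8 lies lower in HFD than in NCD.

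The inducible HSP70 genes had the largest changes of the 10. Hspa1b (ENSMUSG00000090877, chr17:34956436-34959238, minus strand) had 376 and 416 CPM in HFD libraries, against 94.9 and 97.2 CPM in NCD libraries. Hspa1a (ENSMUSG00000091971, chr17:34969190-34972156, minus strand) had 323 and 359 CPM in HFD libraries, against 81.1 and 90.8 CPM in NCD libraries. For both genes each HFD library was more than 3 times each NCD library. The log2 change was 2.04 ± 0.0630 (SE) for Hspa1b (edgeR adjusted p = 5.55e-05) and 1.99 ± 0.0820 for Hspa1a (edgeR adjusted p = 0.000102). These intronless genes encode nearly the same protein, the stress-inducible HSP70.

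Their constitutive relative moved the other way. Hspa8 (ENSMUSG00000015656, chr9:40800984-40810087, plus strand), which encodes the everyday cytosolic HSP70 known as HSC70, had 807 and 810.3 CPM in HFD libraries, against 921 and 974 CPM in NCD libraries. The HFD libraries lay close together and below both NCD libraries. The log2 change was -0.23 ± 0.0391 (edgeR adjusted p = 0.00901).

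The HSP70 partners among the members were all higher in HFD, by less than the inducible HSP70 genes. Bag3 (ENSMUSG00000030847, chr7:128523616-128546981, plus strand), an exchange factor that also directs clients to autophagy, had 116 and 118 CPM in HFD libraries, against 67.5 and 62.0 CPM in NCD libraries. Its log2 change was 0.85 ± 0.0649 (edgeR adjusted p = 0.000594). Dnajb1 (ENSMUSG00000005483, chr8:83608193-83612653, plus strand), the stress-inducible J-domain protein that delivers clients to HSP70, had 109 and 111 CPM in HFD libraries, against 72.7 and 73.7 CPM in NCD libraries. The replicates of each diet differed by far less than the diets did. Its log2 change was 0.59 ± 0.0530 (edgeR adjusted p = 0.00105). Hsph1 (ENSMUSG00000029657, chr5:149614287-149636376, minus strand), an HSP110 that acts as exchange factor for HSP70, had 416 and 424 CPM in HFD libraries, against 309.8 and 316 CPM in NCD libraries. Its log2 change was 0.42 ± 0.0384 (edgeR adjusted p = 0.00106), so the order among the partners was Bag3, Dnajb1, Hsph1.

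The small heat shock protein gene Hspb1 (ENSMUSG00000004951, chr5:135887919-135889563, plus strand), known as HSP25 in mice, was the other member with a fold above 2. It had 64.5 and 75.3 CPM in HFD libraries, against 35.0 and 31.2 CPM in NCD libraries. Its log2 change was 1.08 ± 0.104 (edgeR adjusted p = 0.00130), and its lowest HFD library was well above its highest NCD library.

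The HSP90 genes changed little. Hsp90ab1 (ENSMUSG00000023944, chr17:45567775-45573271, minus strand), the constitutive cytosolic form, had 2092 and 2121 CPM in HFD libraries, against 1772 and 1862 CPM in NCD libraries, a log2 change of 0.21 ± 0.0342 (edgeR adjusted p = 0.00726). Hsp90aa1 (ENSMUSG00000021270, chr12:110690605-110702728, minus strand), the inducible form, had 757 and 677 CPM in HFD libraries, against 634 and 656 CPM in NCD libraries. Its second HFD library lay just above the NCD libraries, and its log2 change of 0.15 ± 0.0600 was not called (edgeR adjusted p = 0.113). Without HFD replicate 2 it was called (log2 change 0.23, edgeR adjusted p = 0.0326), as it was with genes under 5 CPM on average set aside (log2 change 0.20, edgeR adjusted p = 0.0460). Of the inducible class it was the 1 member not called.

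Hspd1 (ENSMUSG00000025980, chr1:55077835-55088243, minus strand), the mitochondrial HSP60, was lower in HFD. It had 412 and 411 CPM in HFD libraries, against 508 and 532 CPM in NCD libraries, a log2 change of -0.34 ± 0.0404 (edgeR adjusted p = 0.00265). Its head-to-head partner Hspe1 had 89.0 and 90.8 CPM in HFD libraries, against 94.2 and 97.7 CPM in NCD libraries, and was not called (log2 change -0.09 ± 0.0544, edgeR adjusted p = 0.256). The ratio of Hspd1 to Hspe1 CPM was 4.62 and 4.53 in HFD libraries and 5.40 and 5.45 in NCD libraries. The genes lie on opposite strands and share 112 exon bases, and the sources used here do not state whether counting used the strand.

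**Figure D2:**
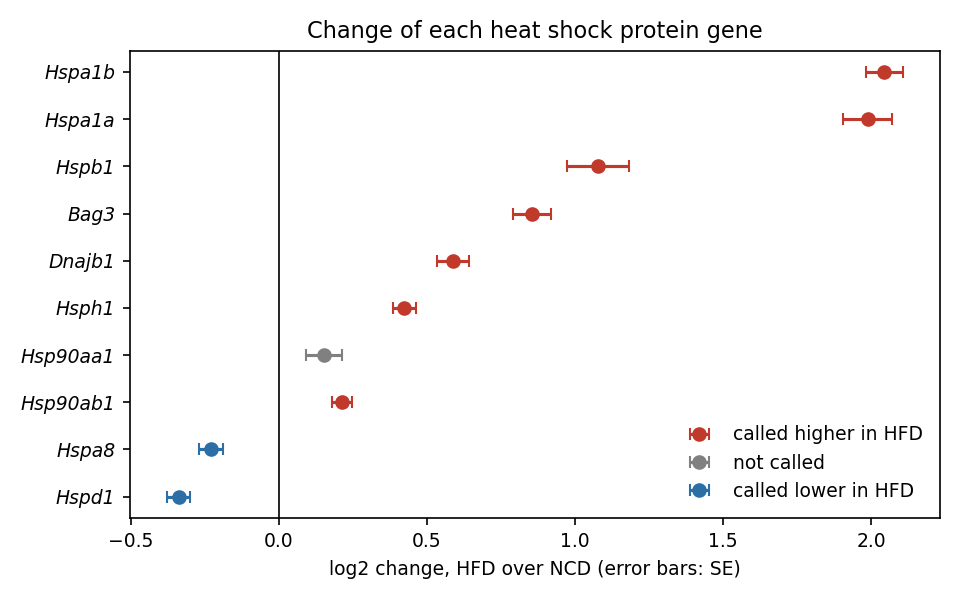
Fitted log2 change of each member, HFD over NCD, with standard errors as bars; colours mark genes called higher, called lower or not called. The points run from 2.04 for Hspa1b to -0.34 for Hspd1, with Hsp90aa1 the single member not called.

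Compared per kilobase of the longest coding transcript, the constitutive HSP90 gene was the most abundant member in both diets. Hsp90ab1 stood at 836 ± 8.15 CPM per kb in HFD and 721 ± 25.2 CPM per kb in NCD (SD, n = 2 each), followed by Hspa8 at 338 ± 0.926 CPM per kb in HFD and 396 ± 15.5 CPM per kb in NCD. The order below these differed between the diets. In HFD it ran Hsp90aa1 (219 ± 17.1), Hspd1 (169.8 ± 0.0520), Hspa1b (141 ± 10.1), Hspa1a (115 ± 8.54), Hsph1 (110.4 ± 1.49), Hspb1 (75.2 ± 8.18), Bag3 (45.7 ± 0.785) and Dnajb1 (36.7 ± 0.622), all in CPM per kb. In NCD it ran Hspd1 (215 ± 7.10), Hsp90aa1 (197 ± 4.61), Hsph1 (82.3 ± 1.11), Hspb1 (35.6 ± 2.87), Hspa1b (34.3 ± 0.583), Hspa1a (29.0 ± 2.31), Bag3 (25.3 ± 1.52) and Dnajb1 (24.4 ± 0.222), all in CPM per kb. Thus Hspa1b was the fifth most abundant member in HFD and the seventh in NCD. Over the length of all exons its rank in NCD was 6, and Hspb1 ranked above Hsph1 in HFD. The libraries of Hspa1a and Hsph1 overlapped in HFD, and those of Hspb1 and Hspa1b and of Bag3 and Dnajb1 overlapped in NCD, so these neighbours did not differ beyond their spread. Members also differ in how much sequence they share with other genes, with 73.2% of 50-base windows shared for Hspa8 against 4.49% for Hsp90ab1. How reads matching several genes were counted is not stated, so the order between genes may depend on it.

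Set against each other as sums, the inducible class differed between the diets by more than the constitutive class. The summed CPM of the 7 inducible members was 2159.8 and 2181 in HFD libraries, against 1295 and 1326 in NCD libraries. The summed CPM of the 2 constitutive members was 2899 and 2931 in HFD libraries, against 2694 and 2836 in NCD libraries. The inducible sum was 1.66-fold higher in HFD and the constitutive sum 1.05-fold, with no test of sums over chosen genes. The 2 constitutive members moved in opposite directions and partly cancelled in their sum. HFD over NCD was 1.16 for Hsp90ab1 and 0.85 for Hspa8. These sums add reads, in which a long transcript weighs more than a short one, and are not numbers of molecules. The ratio of the inducible to the constitutive sum was 0.745 and 0.744 in HFD libraries, against 0.481 and 0.468 in NCD libraries. The 2 HFD ratios were nearly equal and lay above both NCD ratios.

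Much of that difference lay in the inducible HSP70 pair. Hspa1a and Hspa1b together had 699 and 775 CPM in HFD libraries, against 176 and 188 CPM in NCD libraries, or 12.8% and 14.0% of the counts of all 10 members in HFD and 3.91% and 4.00% in NCD. The ratio of the pair to Hspa8 was 0.866 and 0.956 in HFD libraries and 0.191 and 0.193 in NCD libraries. Without the pair, the other inducible members summed to 1461 and 1406 CPM in HFD and 1119 and 1138 CPM in NCD, which is 1.27-fold higher in HFD. The ratio of Hsp90aa1 to Hsp90ab1, by contrast, was 0.362 and 0.319 in HFD libraries and 0.358 and 0.352 in NCD libraries, so that the diets overlapped.

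**Figure D3:**
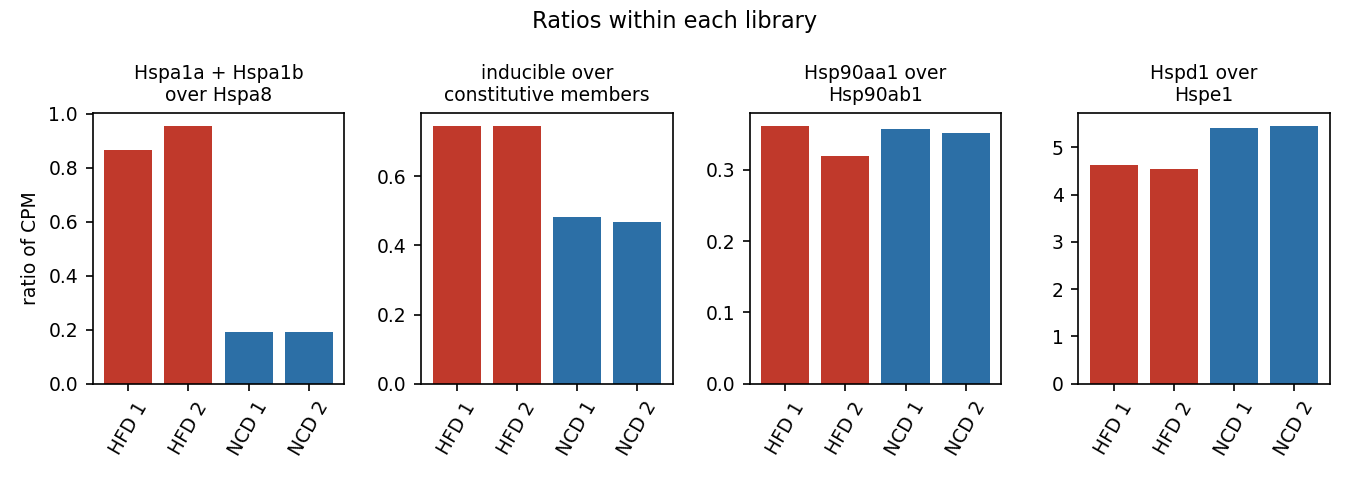
Ratios of CPM within each library, with HFD bars in red left of NCD bars in blue, 1 bar per library and axes from 0. The inducible to constitutive ratio is 0.745 and 0.744 in HFD and 0.481 and 0.468 in NCD, whereas the Hsp90aa1 to Hsp90ab1 ratios of the diets overlap.

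Several members have near-identical copies, and the sources used here do not state how reads matching several genes were counted. Hspa1a and Hspa1b lie 9951 bases apart on chromosome 17 and were 99.1% identical over 2200 aligned bases. Of the 50-base windows of the Hspa1a transcript, 60.4% also occur on the same strand of another gene, namely Hspa1b or the testis-enriched neighbour Hspa1l. For the Hspa1b transcript the share was 62.3%. Reads lying wholly within these stretches, with no mate outside them, cannot be told apart. How many such reads there were was not tested. The split between the pair is therefore uncertain, and so is their sum if such reads were dropped. Hspa1b had 53.8% and 53.7% of the pair's CPM in HFD libraries and 53.9% and 51.7% in NCD libraries, which overlap. Tested as 1 gene, the pair had a log2 change of 2.02 (edgeR adjusted p = 6.15e-05). Hspa1l itself had 4.86 and 3.87 CPM in HFD libraries, against 4.02 and 3.89 CPM in NCD libraries, and was not called (edgeR adjusted p = 0.648). Gm20481, which runs antisense over 564 exon bases of Hspa1a, had 1 and 0 counts in HFD libraries and 2 and 0 counts in NCD libraries.

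Hspa8 has the most copies. Of its 50-base windows, 73.2% occur elsewhere, and 7 of its 10 copies had counts, which together came to 21.1% and 20.1% of Hspa8's own counts in HFD libraries and 17.6% and 17.2% in NCD libraries. Nearly all were given to Gm15459, a processed pseudogene on chromosome 5 that was 99.7% identical over 1941 bases, with 160.01 and 151 CPM in HFD libraries, against 152 and 158 CPM in NCD libraries (log2 change 0.01 ± 0.0541, edgeR adjusted p = 0.930). With its copies added, Hspa8 was still called lower in HFD (log2 change -0.19, edgeR adjusted p = 0.0144). The copies of Hsp90aa1 had 3.83% and 4.16% of its counts in HFD libraries and 3.83% and 3.60% in NCD libraries, and those of Hspd1 had 2.42% and 2.63% in HFD libraries and 2.21% and 2.34% in NCD libraries. The copies of Hspb1 had 5.36% and 4.69% in HFD libraries and 5.80% and 7.31% in NCD libraries. These shares are small, but much of each transcript is not unique. Of their 50-base windows, 58.5% for Hsp90aa1, 44.8% for Hspd1 and 51.6% for Hspb1 also occur in another gene. On the same strand, Hsph1 and Bag3 share no 50-base window with another gene, Dnajb1 shares 0.407% of its windows and Hsp90ab1 4.49%. Little or none of their sequence is therefore open to reads shared on that strand. Matches on the opposite strand were not counted in any of these window shares.

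**Figure D4:**
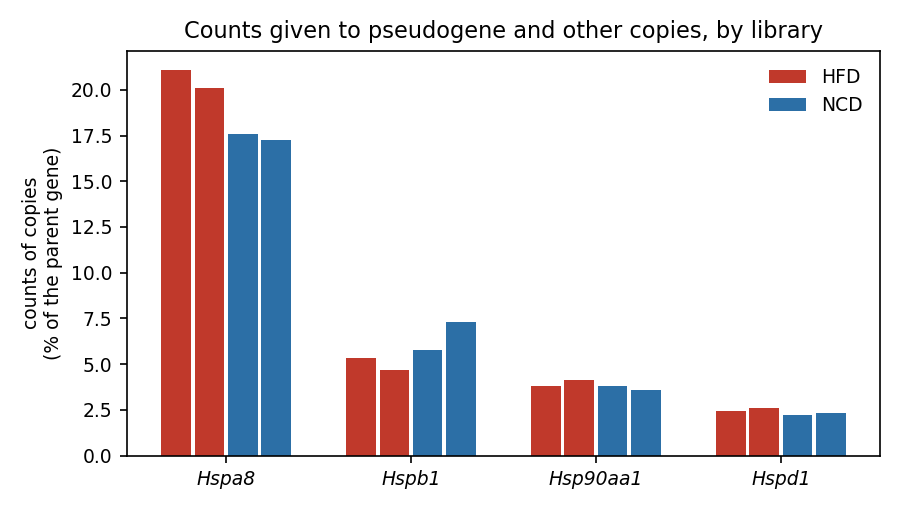
Counts given to pseudogenes and other copies, as a percent of the parent gene's own counts, in each HFD library (red, left) and NCD library (blue, right). Copies of Hspa8 come to 21.1% and 20.1% in HFD and 17.6% and 17.2% in NCD, and those of the other 3 genes stay under 8% in every library.

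The chaperones around these members did not all follow the inducible class. Of all genes tested, 17.9% were higher and 14.5% lower, and list counts near these shares say little about a list. Of 7 other HSP70 and HSP110 genes, 1 was higher in HFD (14.3%) and 2 were lower (28.6%), with a median log2 change of 0.07. Hspa12b, an endothelial HSP70 relative, had a log2 change of 0.90 ± 0.136 (edgeR adjusted p = 0.00591), while Hspa12a, an atypical relative, fell by 0.73 (edgeR adjusted p = 0.00181) and Hspa2, an HSP70 best known from testis, fell by 0.46 (edgeR adjusted p = 0.00892). The endothelial marker list summed to 2074 and 2068 CPM in HFD libraries, against 1726 and 1763 CPM in NCD libraries, with 5 of 8 markers higher and 2, Kdr (log2 change -0.22) and Flt1 (log2 change -0.18), lower, and its part in the Hspa12b result was not tested.

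Among 15 other J-domain (HSP40) genes, 3 were higher (20%) and 4 lower (26.7%), with a median log2 change of -0.02. The share higher was near the 17.9% of all genes tested. Dnaja1, a general cytosolic partner of HSC70, had 268 and 261 CPM in HFD libraries, against 209 and 219 CPM in NCD libraries (log2 change 0.31 ± 0.0458, edgeR adjusted p = 0.00584). Dnaja4, of the same class, went the other way, with 134 and 131 CPM in HFD libraries, against 251 and 251 CPM in NCD libraries (log2 change -0.92 ± 0.0440, edgeR adjusted p = 0.000160). Dnajc9, a J-domain protein that handles histones, fell by 0.36 (edgeR adjusted p = 0.0107, and 0.0593 without HFD replicate 1), and Dnajb14, which sits in the endoplasmic reticulum membrane, fell by 0.41 (edgeR adjusted p = 0.0223, and 0.0731 without NCD replicate 1). The count of J-domain genes called higher dropped to 1 without NCD replicate 1 and without either HFD library, and the count called lower dropped to 2 without HFD replicate 1. With replicate number as a block, 1 J-domain gene was called higher.

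Of 8 other small heat shock protein genes, Hspb3 had too few counts to be tested, 3 of the other 7 were higher (42.9%) and 1 was lower (14.3%). Cryab, which encodes αB-crystallin, the chaperone of lens and muscle that is also stress-inducible, had 18.1 and 21.3 CPM in HFD libraries, against 3.02 and 3.18 CPM in NCD libraries (log2 change 2.67 ± 0.147, edgeR adjusted p = 0.000237). Hspb8, which works with Bag3, had 56.8 and 62.9 CPM in HFD libraries, against 43.6 and 48.4 CPM in NCD libraries (edgeR adjusted p = 0.0239), and its call was lost without NCD replicate 1 (0.103) and without HFD replicate 2 (0.110). Cryaa, its lens relative, had 39 and 16 counts in HFD libraries and none in NCD libraries, at least 2.41-fold higher in HFD against a floor of 12 counts per library. That call was lost without either HFD library (edgeR adjusted p = 0.136 without replicate 1 and 0.0637 without replicate 2). Hspb6, a small heat shock protein of muscle, fell by 0.51 (edgeR adjusted p = 0.0136), and was no longer called without NCD replicate 2 (0.0612) or HFD replicate 1 (0.0687). The list's median log2 change was 2.67, but it rests on fitted values of 3 genes with few or no counts in NCD. Besides Cryaa these were Hspb2, with 73 and 76 counts in HFD libraries and 17 and 0 in NCD libraries, and Hspb9, with 19 and 18 counts in HFD libraries and 4 and 0 in NCD libraries, neither of them called. With Cryaa alone at its lower bound the median was 1.27, and with every library under 12 counts raised to 12, a setting chosen after seeing the data, it was 0.72. Muscle markers summed to 98.1 and 95.0 CPM in HFD libraries, against 21.5 and 24.2 CPM in NCD libraries, with 3 of 5 tested markers higher, and their part in the Cryab, Hspb1 and Hspb6 results was not tested.

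Co-chaperones regulate what HSP90 and HSP70 bind and how fast they let go. Of 16 HSP90 co-chaperone genes, 2 were higher (12.5%) and 5 lower (31.25%), with a median log2 change of -0.13. Some of the calls lower were lost without NCD replicate 1. Fkbp4, which couples HSP90 to steroid receptors, had 279.9 and 276 CPM in HFD libraries, against 346 and 355 CPM in NCD libraries (log2 change -0.34 ± 0.0397, edgeR adjusted p = 0.00254). Ppp5c, a phosphatase bound to HSP90, fell by 0.34 (edgeR adjusted p = 0.00876), Stub1, the ubiquitin ligase CHIP, by 0.27 (edgeR adjusted p = 0.0101, and 0.0564 without HFD replicate 1), and Ttc4, an HSP90-binding protein, by 0.39 (edgeR adjusted p = 0.0134, and 0.0649 without NCD replicate 1 and 0.0706 without HFD replicate 1). Against these, Stip1, which links HSP70 to HSP90, had a log2 change of 0.18 ± 0.0482 (edgeR adjusted p = 0.0361) and Sugt1, a kinetochore co-chaperone, one of 0.22 ± 0.0643 (edgeR adjusted p = 0.0493). Both of these calls were lost when any library was left out, with edgeR adjusted p of 0.0649 to 0.144 for Stip1 and 0.0822 to 0.196 for Sugt1. Of 7 HSP70 co-factor genes, none was higher and 2 were lower (28.6%), with a median log2 change of -0.18. They were Bag4, a relative of Bag3, which fell by 0.45 (edgeR adjusted p = 0.00784), and St13, the HSP70-interacting protein HIP, which fell by 0.24 (edgeR adjusted p = 0.0107, and 0.0616 without HFD replicate 1).

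Most genes listed as mitochondrial chaperones and proteases or as chaperones of the endoplasmic reticulum were lower in HFD. Of 10 genes of mitochondrial chaperones and proteases besides Hspd1, none was higher and 7 were lower (70%), with a median log2 change of -0.29. Lonp1, Clpp, Clpx and Htra2 in this list encode proteases or parts of them. Some of the calls were lost without HFD replicate 1. Lonp1, the matrix protease, had 415 and 431 CPM in HFD libraries, against 616 and 611 CPM in NCD libraries (log2 change -0.54 ± 0.0378, edgeR adjusted p = 0.000474). Clpp, the proteolytic chamber of the matrix, fell by 0.56 (edgeR adjusted p = 0.00489), Dnaja3, a mitochondrial J-domain protein, by 0.62 (edgeR adjusted p = 0.00494) and Grpel2, a mitochondrial exchange factor, by 0.42 (edgeR adjusted p = 0.00938). Thus Hspd1 and 7 of these 10 genes were lower in HFD. Of 15 chaperone genes of the endoplasmic reticulum, 13 were lower (86.7%) and 1 higher (6.67%), with a median log2 change of -0.42. Hspa5, its HSP70, had 1994 and 2007 CPM in HFD libraries, against 2868 and 2969.6 CPM in NCD libraries (log2 change -0.55 ± 0.0292, edgeR adjusted p = 0.000216). Hyou1, its HSP110, fell by 0.63 (edgeR adjusted p = 0.000262), Sdf2l1, a cofactor of its J-domain proteins, by 0.90 (edgeR adjusted p = 0.000295) and Calr, the lectin chaperone calreticulin, by 0.61 (edgeR adjusted p = 0.000356). The 1 gene higher was Serpinh1, the collagen chaperone HSP47, with 214 and 120.3 CPM in HFD libraries, against 57.6 and 64.0 CPM in NCD libraries (log2 change 1.46 ± 0.265, edgeR adjusted p = 0.0110). All 9 fibroblast markers were higher in HFD as well, and their part in the Serpinh1 result was not tested. Beta cell markers were lower in HFD together with most genes of these lists, 8 of 10 called lower and 0 higher. Their sums were 13659 and 14298 CPM in HFD libraries, against 17597 and 18074 CPM in NCD libraries. Their part in the mitochondrial and endoplasmic reticulum results was not tested.

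The cytosolic chaperonin and the heat shock factors changed little. Of 14 genes of the TRiC chaperonin and prefoldin, which fold actin and tubulin, 2 were higher (14.3%) and none lower (median log2 change -0.02). These were Cct3 (log2 change 0.20 ± 0.0466, edgeR adjusted p = 0.0252) and Cct2 (log2 change 0.17 ± 0.0444, edgeR adjusted p = 0.0388), and both calls were lost when any library was left out, with edgeR adjusted p of 0.0671 to 0.117 for Cct3 and 0.0667 to 0.145 for Cct2. Hsf1 had 34.3 and 35.2 CPM in HFD libraries, against 39.2 and 37.6 CPM in NCD libraries, and was not called (log2 change -0.14 ± 0.0708, edgeR adjusted p = 0.188). Of the 6 HSF genes and binding partners listed, Hsf3 had too few counts to be tested, and of the other 5 only Hsf4, known from the lens, was called. It fell by 0.77 (edgeR adjusted p = 0.0224), a call that ended without NCD replicate 1 (0.0790), without NCD replicate 2 (0.0607) and without HFD replicate 2 (0.0709). HSF1 activity is set after translation, and no value here measures it.

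**Figure D5:**
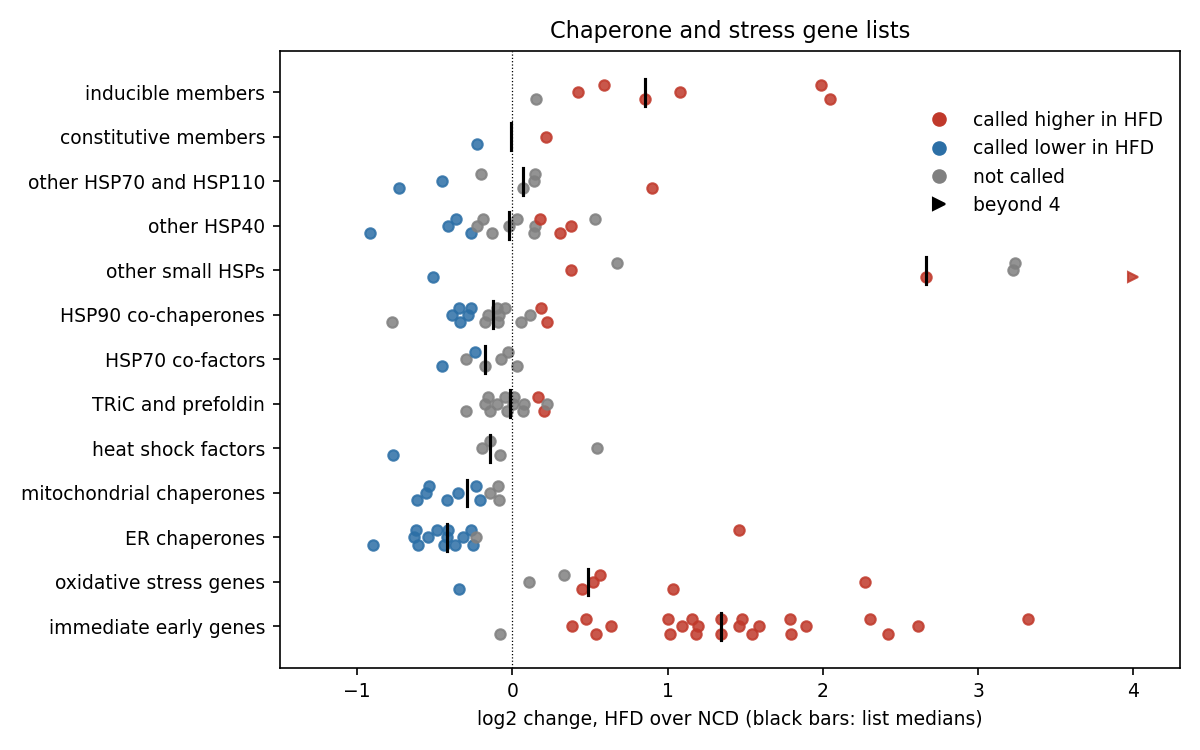
Log2 change, HFD over NCD, of every tested gene in each chaperone and stress list, with black bars at the list medians and colours for genes called higher, lower or not called. Inducible members all lie above 0 (median 0.85), whereas 13 of 15 endoplasmic reticulum chaperones were called lower; the point beyond 4 is Cryaa, which had no count in NCD.

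Lists of other stress-responsive genes also held more genes higher than lower in HFD, as did all genes tested (17.9% higher and 14.5% lower). Of 8 oxidative stress genes, 5 were higher (62.5%) and 1 lower (12.5%), with a median log2 change of 0.48. Slc7a11, which imports cystine for glutathione synthesis, had 415 and 390.1 CPM in HFD libraries, against 82.0 and 84.9 CPM in NCD libraries (log2 change 2.27 ± 0.0531, edgeR adjusted p = 3.86e-05). Nqo1, a quinone reductase, had a log2 change of 1.03 ± 0.0470 (edgeR adjusted p = 0.000138), Gclc, the catalytic subunit of glutathione synthesis, one of 0.56 ± 0.050 (edgeR adjusted p = 0.000993) and Srxn1, which repairs peroxiredoxins, one of 0.52 ± 0.0485 (edgeR adjusted p = 0.00115). Sqstm1, the autophagy receptor p62, fell by 0.35 (edgeR adjusted p = 0.000736). Immediate early genes are switched on by many cells within minutes of handling or stimulation. Of 24 listed, 23 were higher (95.8%) and none lower (median log2 change 1.34). Egr1, a zinc finger factor, had 523 and 526 CPM in HFD libraries, against 142 and 141 CPM in NCD libraries (log2 change 1.89 ± 0.0387, edgeR adjusted p = 2.55e-05). Ier3, a survival factor, had a log2 change of 1.79 ± 0.0594 (edgeR adjusted p = 6.14e-05), Zfp36, which destabilises cytokine messages, one of 1.48 ± 0.0488 (edgeR adjusted p = 6.14e-05) and Jun, a subunit of AP-1, one of 1.18 ± 0.0410 (edgeR adjusted p = 6.70e-05). Both HFD libraries were above both NCD libraries for each gene named as higher here, and the part of these genes in the heat shock results was not tested.

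The libraries held far more counts of endocrine marker genes than of macrophage marker genes, so a CPM here is a value over mixed islet RNA and not over macrophages alone. Macrophage markers summed to 979 and 987 CPM in HFD libraries, against 1101 and 1068 CPM in NCD libraries, with 4 of 13 higher and 6 lower. Beta cell markers were lower, as given above, while alpha cell markers, with 3 of 5 higher and 0 lower, summed to 13250 and 13928 CPM in HFD libraries, against 9327 and 9778 CPM in NCD libraries. Delta cell markers, with 1 of 3 higher and 1 lower, summed to 3444 and 3621 CPM in HFD libraries, against 4006 and 4205 CPM in NCD libraries. The beta, alpha and delta cell sums were each above the macrophage sum in every library. Ductal markers, with 5 of 7 higher and 1 lower, summed to 2415 and 2689 CPM in HFD libraries, against 1291 and 1343 CPM in NCD libraries. T and NK cell markers, with 7 of 8 higher and 0 lower, summed to 71.4 and 59.5 CPM in HFD libraries, against 12.8 and 12.6 CPM in NCD libraries. All 10 acinar, all 9 fibroblast and all 8 B and plasma cell markers were higher, with summed levels of 2873 and 3271, 1585 and 1585, and 4681 and 4728 CPM in HFD libraries, against 398 and 416, 152 and 149, and 715 and 719.7 CPM in NCD libraries. No marker of these lists was without counts in all libraries. In such bulk RNA, fewer cells of a type and less RNA per cell cannot be told apart, and the part of these markers in the changes of the heat shock genes was not tested.

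Genes whose pattern over the 4 libraries was most like that of Hspa1a plus Hspa1b were sought among 8793 tested genes other than the 10 members that averaged at least 20 CPM, by the Euclidean distance between centred log2 CPM values. The nearest 5 were Slfn2 (distance 0.0627), Akr1b8 (0.0777), Fam49a (0.0881), Anxa2 (0.100) and Mmd (0.120). Slfn2, a Schlafen family gene of immune cells, had 49.8 and 54.7 CPM in HFD libraries, against 13.0 and 13.1 CPM in NCD libraries. Anxa2, which encodes the membrane-binding annexin A2, had 223 and 228 CPM in HFD libraries, against 52.7 and 59.5 CPM in NCD libraries. With 4 libraries the pattern is set mainly by the difference between the diets.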

How the data were processed

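The authors deposited whole-number counts per Ensembl gene identifier, 1 table per library, with 2 HFD and 2 NCD libraries grouped by their titles. Per the labels' protocols, islets were frozen after isolation, TRIzol was used for RNA and a stranded KAPA kit for libraries. The sources used here do not state how macrophages were separated. The submitters' processing notes name HISAT, featureCounts 1.5.0, DESeq 1.8.3 and GRCm38. They give neither the strand setting nor the treatment of reads matching several genes, and either could change the counts of genes with copies or antisense partners.

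Symbols came from a GENCODE annotation of GRCm38, which named 55154 of 55421 identifiers. Genes passing edgeR's filterByExpr (minimum count 10) were scaled by TMM and tested for diet with the quasi-likelihood F test of edgeR 4.0.16 in R 4.3.3, with no block for replicate number. Calls were made at a Benjamini-Hochberg adjusted p below 0.05. Counts at multiples of 4 were 1.64 to 1.74 times as frequent as their neighbours in each library, so single counts may be less precise than the totals imply, and a floor of 12 counts, chosen after this was seen, stands for a gene without counts. Floors cover counting error only. Copies were found with BLAST 2.17.0 (at least 90% identity over 200 bases) and as 50-base windows shared on the same strand. On 20841 genes simulated for HFD against NCD, 2%, 42%, 84% and 100% of 50 genes changed by a fold of 1.25, 1.5, 2 and 4 were found, with 27 calls among unchanged genes. The simulation changed 200 genes in all, each averaging at least 5 CPM, far fewer than the 6983 called in the data. Its shares therefore need not hold for the data.

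The members and lists were chosen with earlier results of these data known. Besides the members, the named genes were up to 4 called genes with the smallest p of each list, up to 2 called against their list's majority, Hsf1, Hspe1 and the 5 genes most like the Hspa1 pair in pattern. Others are named as neighbours or copies. The alternatives tried were limma-voom (limma 3.58.1), DESeq2 1.42.0 with its Wald test, its size factors in edgeR, other filters, library sizes without dominant genes, counts divided by 4, a replicate block, a fold of at least 2, merged copies and each library left out. Adding pseudogene copies to their parents in the test was chosen after seeing the data.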

Additional observations from a re-analysis of the deposited data

How the results depend on the processing

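The 10 members kept their direction under every alternative run, and the counts of 7 higher and 2 lower changed only with a fold of at least 2, which left 3 higher and 0 lower (all genes 2160 higher and 287 lower, against 3860 and 3123), with Hsp90aa1 called under the 2 settings named above, and with Hspa1a and Hspa1b tested as 1 gene, which made 6 higher. With 1 library left out, the member counts ranged from 7 to 8 higher and stayed at 2 lower, and those of all genes from 2710 to 3224 higher and from 2015 to 2174 lower. A diet left with 1 library was assumed to vary like the other. Without Hspa1a and Hspa1b, the log2 change of the inducible sum was 0.34 in place of 0.73 and that of the inducible to constitutive ratio 0.27 in place of 0.65. With 1 library left out, these 2 values ranged from 0.71 to 0.74 and from 0.63 to 0.67, and that of the constitutive sum from 0.04 to 0.11. The replicate numbers paired nothing that the labels name (Pearson correlation of deviations -0.0552 over 12728 genes, Spearman 0.0279). A replicate block gave 3252 genes higher and 2583 lower and the same 7 and 2 members, while Cryaa (edgeR adjusted p = 0.0604), Dnajb5, Dnajc13, Dnajc21, Stip1, Sugt1, Clpx and Cct2 (0.0509 to 0.0832) lost their calls and Hspa4l (0.0414) and Hspa13 (0.0494) gained one. Some small counts in the other lists moved: HSP90 co-chaperones higher, 2, became 0 with no count filter, with the block and without each library, and TRiC and prefoldin higher, 2, became 0 or 1 there. The 1 endoplasmic reticulum chaperone higher stayed at 1 under each alternative, and the 5 oxidative stress genes higher became 6 when genes averaging under 5 CPM were set aside and 2 with a fold of at least 2. With a fold of at least 2, the list of mitochondrial chaperones and proteases and that of endoplasmic reticulum chaperones held 0 genes lower.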

Other observations

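The libraries of a diet stood far apart in some genes, which were chosen after their values were seen. Gclm, the regulatory subunit of glutathione synthesis, had 123 and 239 CPM in HFD libraries and 81.8 and 206 CPM in NCD libraries. Fkbp5, an HSP90 co-chaperone of steroid receptors, had 101 and 53.1 CPM in HFD libraries and 132 and 132 CPM in NCD libraries. It was not called with all libraries (edgeR adjusted p = 0.0922) and was called without HFD replicate 1 (0.000796) or HFD replicate 2 (0.0179). Dnajb4, a J-domain partner of HSP70, had 38.6 and 28.8 CPM in HFD libraries and 14.9 and 31.8 CPM in NCD libraries. Gm9817, which matches Hspb1 over 477 bases on the opposite strand, had 89 and 0 counts in HFD libraries and 0 and 66 counts in NCD libraries. The other copy of Hspb1, Hsp25-ps1, had 125 and 200 counts in HFD libraries and 131 and 76 counts in NCD libraries. Together the 2 copies had 214 and 200 counts in HFD libraries and 131 and 142 counts in NCD libraries. Whether reads were divided between these copies was not tested.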
